A study of Brassica rapa with 12 samples.

Results

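The genes described here are 10 Brassica rapa copies of the transcription factors MYB28, MYB34 and MYB51, taken by identifier from the 41020 genes of the deposited count table. MYB28 had 3 copies (Bra012961, Bra035929 and Bra029311), MYB34 had 4 (Bra013000, Bra035954, Bra029349 and Bra029350) and MYB51 had 3 (Bra016553, Bra025666 and Bra031035). The family names came with the list of identifiers. Neither deposited table names a gene, and 0 of the 10 identifiers were found in the RefSeq gene table of B. rapa, so the family assignment was not checked here and no sequence or position is given. All 10 copies were listed, with coding lengths of 843 to 1119 bases.

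Messenger RNA had been sequenced from 4 groups of 3 libraries, namely BrCHR39-silenced stem, wild type stem, BrCHR39-silenced bud and wild type bud, all from plants 8 weeks old grown in a climate chamber. The series presents BrCHR39 as a chromatin remodelling ATPase involved in apical dominance. The labels name the silenced plants only as transgenic lines, without the number of lines or the silencing construct, and they do not say whether a bud was floral or vegetative. Whether the 3 libraries of a group represent separate plants is not stated, and p-values therefore reflect library-to-library spread that could be technical. Libraries held 12275190 to 15693349 reads in genes. The level of BrCHR39 and the markers of stem and bud tissue were not analysed here, because the identifiers carry no names.

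Glucosinolates are sulphur-rich defence compounds of the cabbage family that release pungent products when myrosinase enzymes reach them in damaged tissue. In Arabidopsis, MYB28 activates the genes that make aliphatic glucosinolates from methionine, while MYB34 and MYB51 activate those that make indolic glucosinolates from tryptophan. Indolic synthesis branches from a tryptophan-derived intermediate that is also linked to the growth hormone auxin. B. rapa keeps several copies of many Arabidopsis genes, and reads that suit more than 1 near-identical copy may have been split or lost in the authors' counting.

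Levels are given as scaled FPKM, that is, reads per kilobase of coding length relative to the TMM-scaled library size, so that copies of different length can be set side by side. In silenced stems the MYB28 copy Bra029311 led with 49.2 ± 2.18 scaled FPKM (SD, n = 3), ahead of the other MYB28 copies Bra012961 with 12.3 ± 0.866 and Bra035929 with 4.18 ± 0.0704. Bra013000 and Bra016553 overlapped below them. In wild type stems Bra035929 led with 173 ± 3.12 scaled FPKM, followed by Bra029311 with 81.5 ± 1.57 and Bra012961 with 52.7 ± 3.25. Bra035929 ranked 18161st of 30375 genes with reads in silenced stems, and 1206th of 31065, within the top 3.88%, in wild type stems. The MYB51 copy Bra016553 came next in wild type stems at 3.26 ± 0.63 scaled FPKM, and then the MYB34 copy Bra013000 at 0.271 ± 0.169. No neighbours among these 5 overlapped in their ranges over the 3 wild type stem libraries.

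Buds had another order. In silenced buds Bra029311 again led with 13.4 ± 0.302 scaled FPKM (SD, n = 3) and Bra016553 came next with 8.68 ± 0.757, followed by Bra012961 and Bra035929, which overlapped. In wild type buds Bra029311 had 17.3 ± 1.25 scaled FPKM, and Bra013000 with 5.84 ± 0.489 overlapped with Bra035929 with 5.56 ± 0.512. Bra029311 was thus the highest of the 10 copies in every group except wild type stem.

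**Figure D1:**
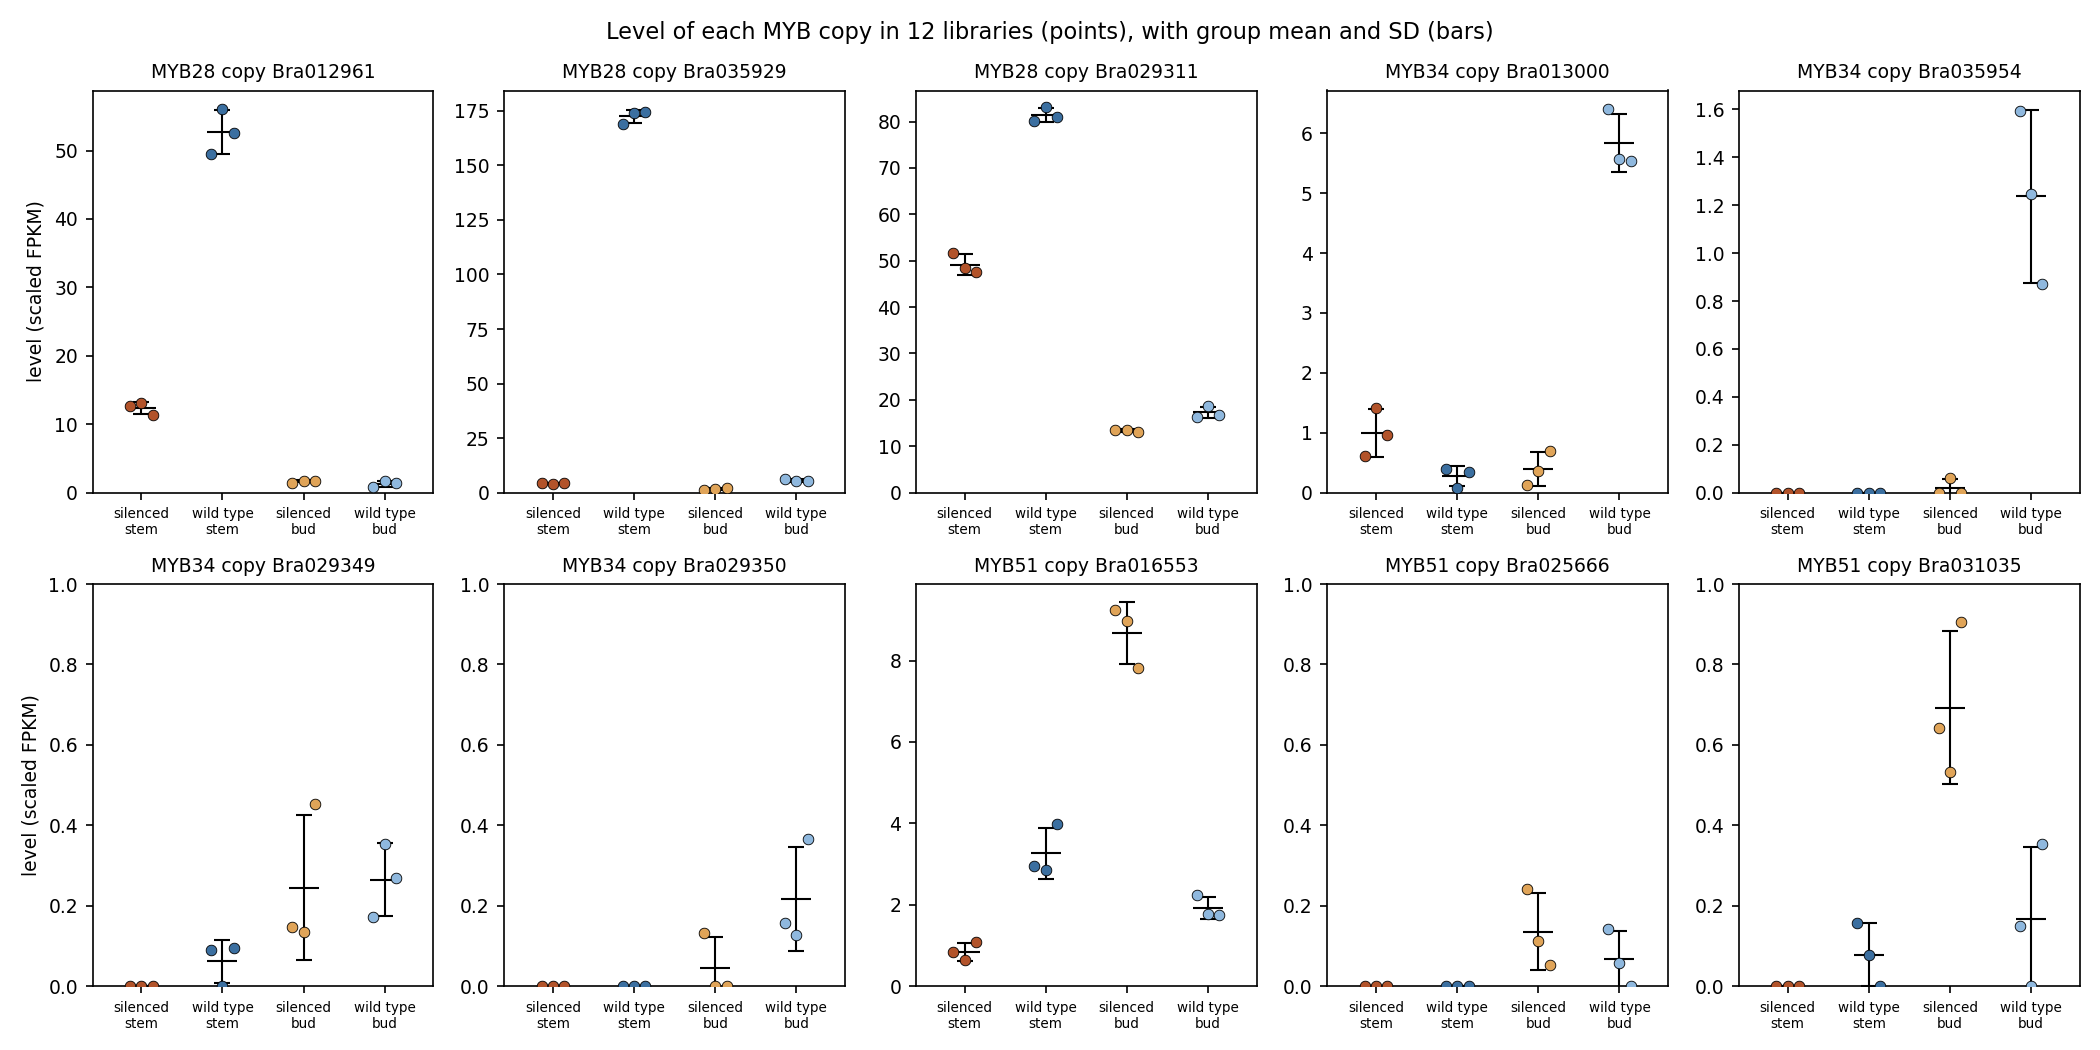
Level of each of the 10 copies in scaled FPKM (vertical axis, a separate linear scale from 0 in each panel) in silenced stem, wild type stem, silenced bud and wild type bud; points are libraries, and bars give the mean and SD of 3 libraries. The 3 MYB28 copies were highest in wild type stems, Bra013000 and Bra035954 in wild type buds, and Bra016553 and Bra031035 in silenced buds.

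The first comparison asks how the regulators differ in stem when BrCHR39 is silenced. All 3 MYB28 copies, the regulators of aliphatic synthesis, fell in silenced stems, but by very different amounts. Bra035929 had 4.25, 4.11 and 4.17 scaled FPKM in silenced stems, against 169, 174 and 175 in wild type stems. These are 165 reads over the silenced stem libraries and 7237 over the wild type ones. The copy was 41.2-fold lower in silenced stems (log2 fold change -5.37 ± 0.0771 SE, adjusted p = 7.38e-116, edgeR, adjusted by Benjamini-Hochberg over 28114 genes), and 1.55% of all tested genes had a log2 fold change that low or lower. In such tissue RNA, fewer cells of a type and less RNA per cell cannot be told apart.

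Bra012961 had 12.6, 13.0 and 11.4 scaled FPKM in silenced stems, against 49.5, 56.0 and 52.6 in wild type stems. It was 4.27-fold lower (log2 fold change -2.09 ± 0.0874 SE, edgeR adjusted p = 1.67e-52). Bra029311 had 51.6, 48.3 and 47.5 scaled FPKM in silenced stems, against 80.1, 83.2 and 81.0 in wild type stems, and was 1.66-fold lower (log2 fold change -0.73 ± 0.0535 SE, edgeR adjusted p = 2.49e-27). Of all tested genes, 6.60% had a log2 fold change in stem as low as that of Bra012961 or lower, and 20.3% as low as that of Bra029311. Silenced and wild type libraries did not overlap for any of the 3 copies. The share of all tested genes without overlap was not counted, and 69.7% of all tested genes were called in stem. The 95% intervals of the log2 fold changes did not overlap between the copies, running from -5.52 to -5.21 for Bra035929, from -2.27 to -1.92 for Bra012961 and from -0.83 to -0.62 for Bra029311. The difference between copies was not tested in a model of its own.

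The indolic regulators moved in opposite directions in stem, at much lower levels. Bra016553, the MYB51 copy with the most reads, fell in silenced stems: it had 0.829, 0.630 and 1.08 scaled FPKM there, against 2.95, 2.84 and 3.98 in wild type stems (3.83-fold lower, log2 fold change -1.94 ± 0.291 SE, edgeR adjusted p = 1.43e-09). Bra013000, the MYB34 copy with the most reads, rose. It had 0.611, 1.41 and 0.960 scaled FPKM in silenced stems, against 0.398, 0.0788 and 0.336 in wild type stems (log2 fold change 1.86 ± 0.531 SE, edgeR adjusted p = 0.00111). That rise rests on 35 reads over 3 silenced stem libraries against 10 over 3 wild type ones. The groups did not overlap, but the lowest silenced and highest wild type libraries differed by 7 against 5 reads, and a fit of the stem libraries alone removed the gene for low counts.

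In stem, 4 of the 10 copies fell and 1 rose, and the other 5 had between 0 and 3 reads over the libraries of either genotype. Of the 28114 genes tested, 32.1% were called lower and 37.6% higher in silenced stems, 69.7% in either direction, so being called was common among all genes. Called falls of at least 2-fold, as in Bra035929, Bra012961 and Bra016553, were made by 14.3% of the tested genes, and called rises of that size, as in Bra013000, by 14.4%. The median log2 fold change of the 5 copies with a stem value was -1.94, and that of all tested genes was 0.05.

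The same comparison in bud gave another pattern. Bra013000 and Bra035954, the 2 MYB34 copies that passed the filter, fell most among the copies tested. Of these, Bra035954 passed only through wild type buds, where it is high. Bra013000 had 0.130, 0.359 and 0.687 scaled FPKM in silenced buds, against 6.40, 5.57 and 5.54 in wild type buds. It was 14.2-fold lower (log2 fold change -3.82 ± 0.310 SE, edgeR adjusted p = 3.94e-24), from 20 reads over the silenced bud libraries and 266 over the wild type ones. Without silenced bud replicate 3, which held 12 of the 20 reads, the log2 fold change was -4.47. Every silenced bud library was far below every wild type one.

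Bra035954, a MYB34 copy with no reads in any of the 6 stem libraries, had 0, 1 and 0 reads in silenced buds, against 20, 19 and 14 in wild type buds. It fell in silenced buds (edgeR adjusted p = 9.7e-10), with a ratio of reads of 0.0175 and a 95% exact interval from 0.000434 to 0.102 that covers counting error only. The single read came from silenced bud replicate 2, and without that library the silenced buds had none. Bra035954 passed the low-count filter only through wild type buds, where it is high, so that its being called adds nothing to the values themselves.

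MYB51 moved the other way in bud. Bra016553 had 9.25, 8.98 and 7.82 scaled FPKM in silenced buds, against 2.24, 1.78 and 1.75 in wild type buds. It was 4.53-fold higher, with no overlap between the groups (log2 fold change 2.18 ± 0.185 SE, edgeR adjusted p = 1.41e-22). In bud, 2.20% of the tested genes had a log2 fold change that high or higher. For the falls in bud, 5.52% had one as low as Bra013000 or lower, 14.2% as low as Bra035929 and 39.1% as low as Bra029311. The scarcer copy Bra031035 had 10, 9 and 16 reads in silenced buds, against 2, 0 and 6 in wild type buds, a ratio of 4.05 with a 95% exact interval from 1.85 to 10.1 for counting error. The main filter left Bra031035 out. Without any filter it was called higher in silenced buds (edgeR adjusted p = 0.00611). It also entered 4 of the fits that left out a bud library, through silenced buds where it is high, so nothing is read from its calls there.

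The MYB28 copies differed less in bud than in stem. Bra035929 had 1.21, 1.43 and 1.93 scaled FPKM in silenced buds, against 6.14, 5.38 and 5.16 in wild type buds, and was 3.58-fold lower (log2 fold change -1.84 ± 0.165 SE, edgeR adjusted p = 5.74e-21). Bra029311 had 13.6, 13.5 and 13.0 scaled FPKM in silenced buds, against 16.3, 18.7 and 16.8 in wild type buds, and was 1.29-fold lower (log2 fold change -0.37 ± 0.0783 SE, edgeR adjusted p = 8.3e-06). Bra012961 had 1.45, 1.71 and 1.74 scaled FPKM in silenced buds, against 0.816, 1.68 and 1.38 in wild type buds. Its groups overlapped and it did not pass the test (log2 fold change 0.31, 95% interval -0.17 to 0.79, edgeR adjusted p = 0.236).

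In bud, 4 of the 6 copies tested were called lower and 1 higher, against 41.3% and 38.5% of all tested genes, and 79.8% were called in either direction. The 4 include Bra035954, which passed the filter only through wild type buds, so its call carries no weight of its own. Called rises of at least 2-fold, as in Bra016553, were made by 13.4% of the tested genes, and called falls of that size, as in Bra013000, Bra035954 and Bra035929, by 23.8%. Leaving out Bra035954, the log2 fold changes of the copies tested ran from -3.82 (Bra013000) to 2.18 (Bra016553). The median of all tested genes was -0.03.

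**Figure D2:**
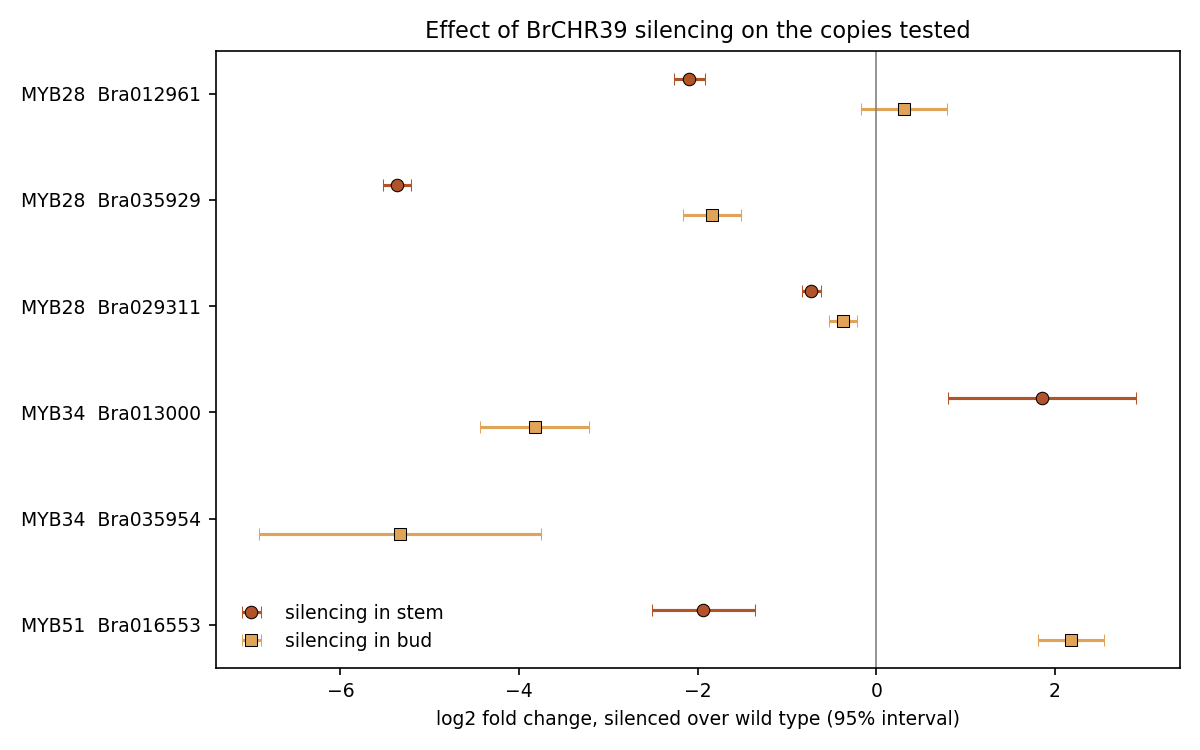
Log2 fold change of silenced over wild type plants (horizontal axis) with its 95% interval from edgeR, in stem (circles) and in bud (squares), for the 6 copies that passed the low-count filter; Bra035954 has no stem value because it had no stem reads, and its bud value rests on 1 read in silenced buds. Bra016553 lies below 0 in stem and above 0 in bud, Bra013000 the reverse, and Bra035929 below 0 in both.

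Whether silenced and wild type plants differed by other amounts in bud than in stem was tested directly as an interaction. This is the log2 fold change in bud minus that in stem. Bra016553 had an interaction of 4.12 ± 0.342 SE (edgeR adjusted p = 2.89e-23), with a rise in bud and a fall in stem. Bra013000 had one of -5.68 ± 0.625 SE (edgeR adjusted p = 1.46e-15), with a fall in bud and a rise in stem. The most abundant MYB34 and MYB51 copies, both regulators of the indolic branch, therefore changed in opposite directions to each other in each tissue.

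For all 3 MYB28 copies the change in bud was less negative than that in stem, or slightly positive. The interaction was 3.52 ± 0.244 SE for Bra035929 (edgeR adjusted p = 9.97e-30), 2.40 ± 0.263 SE for Bra012961 (adjusted p = 1.12e-15) and 0.36 ± 0.0953 SE for Bra029311 (adjusted p = 0.000425). All 5 copies that passed the filter and had stem reads were called, 4 of them positive and 1 negative. Of all tested genes, 74.4% were called, 35.5% positive and 38.8% negative. The median interaction was 2.40 for the 5 copies and -0.10 for all tested genes. No interaction is given for Bra035954, which had no stem reads. DESeq2 called 2 copies negative where edgeR called 1, and the added one is Bra035954. Of the copies left out by the filter, Bra031035 and Bra029349 also had reads in both tissues, with 3 and 2 stem reads in all. Without the filter the interaction of Bra031035 was called (edgeR adjusted p = 0.0284), with 0 reads in silenced stems, and that of Bra029349 was not (adjusted p = 0.315). The interaction of Bra031035 was not called in the fit without wild type stem replicate 1 (edgeR adjusted p = 0.144). That library held 2 of its 3 stem reads, so nothing is read from the call.

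**Figure D3:**
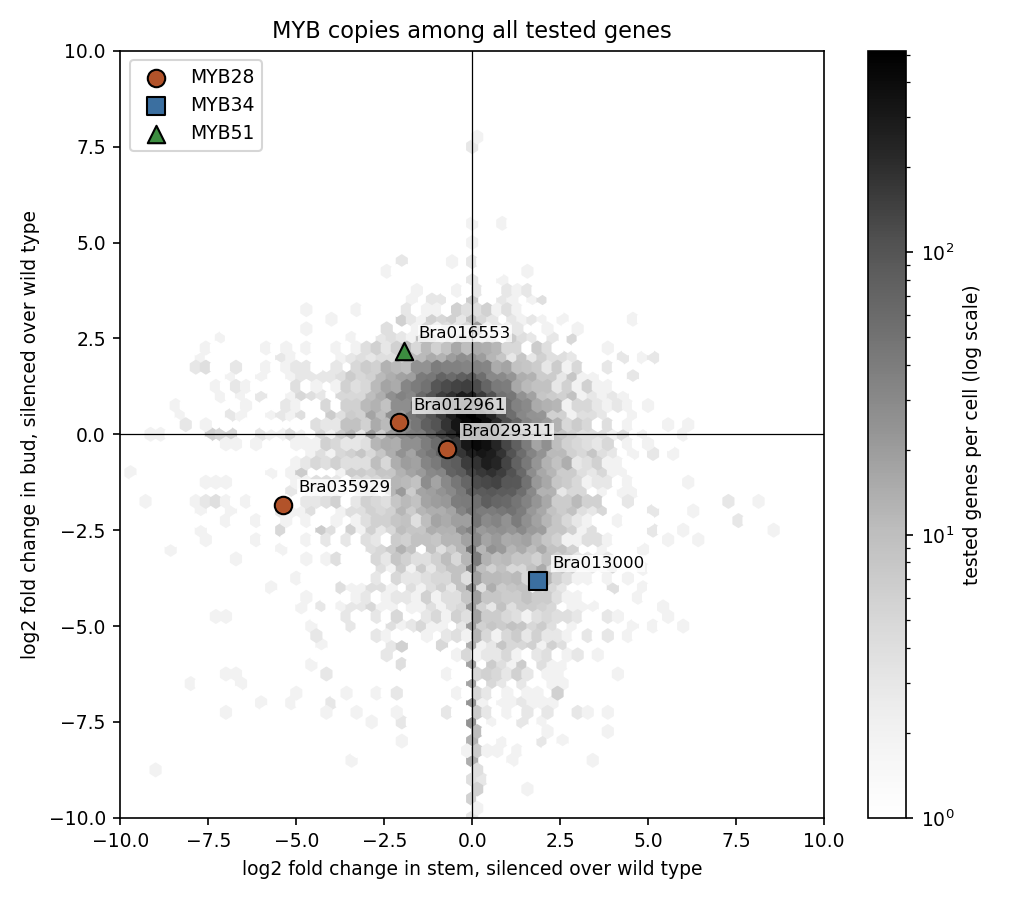
Log2 fold change of silenced over wild type plants in stem (horizontal axis) and in bud (vertical axis) for the tested genes (grey hexagons, darker for more genes, log scale), with the 5 copies that have a value in both tissues marked by family; 95 of 28114 genes lie outside the axes, which end at 10 in either direction. Bra016553 lies in the upper left, Bra013000 in the lower right and Bra035929 far to the left of the main cloud.

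The makeup of the MYB28 pool changed along with its size. Summed over the 3 copies, MYB28 had 65.7 ± 2.74 scaled FPKM in silenced stems and 307 ± 7.45 in wild type stems (SD, n = 3 each), a ratio of 0.214. In buds the sum was 16.5 ± 0.260 scaled FPKM in silenced plants and 24.1 ± 1.41 in wild type plants, a ratio of 0.686. Bra035929 made up 6.21%, 6.28% and 6.61% of the summed level in silenced stems, against 56.6%, 55.6% and 56.6% in wild type stems. Bra029311 took 75.4%, 73.8% and 75.4% in silenced stems, against 26.8%, 26.6% and 26.3% in wild type stems, although its own level fell. The share of Bra012961 was 18.8% ± 0.983 in silenced stems and 17.2% ± 0.655 in wild type stems.

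Bud pools were led by Bra029311 in both genotypes. It made up 81.0% ± 2.79 of the MYB28 level in silenced buds and 71.5% ± 1.28 in wild type buds (SD, n = 3 each), whereas Bra035929 made up 9.18% ± 2.11 in silenced buds and 23.1% ± 2.88 in wild type buds. Bra012961 made up 9.86% ± 0.813 in silenced buds and 5.32% ± 1.59 in wild type buds, also without overlap. The shares of all 3 copies did not overlap between genotypes in either tissue. They add up to the whole in each library, so they are not separate results. For Bra012961 in stem the gap was narrow, with 18.0% in the lowest silenced library and 17.9% in the highest wild type one. No such shares were counted for genes outside the 10 copies. No p is given for them, since an exact permutation test of 3 libraries against 3 cannot go below 0.10. Bra029311 thus led the MYB28 level in silenced stems and in both bud groups, and Bra035929 in wild type stems.

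**Figure D4:**
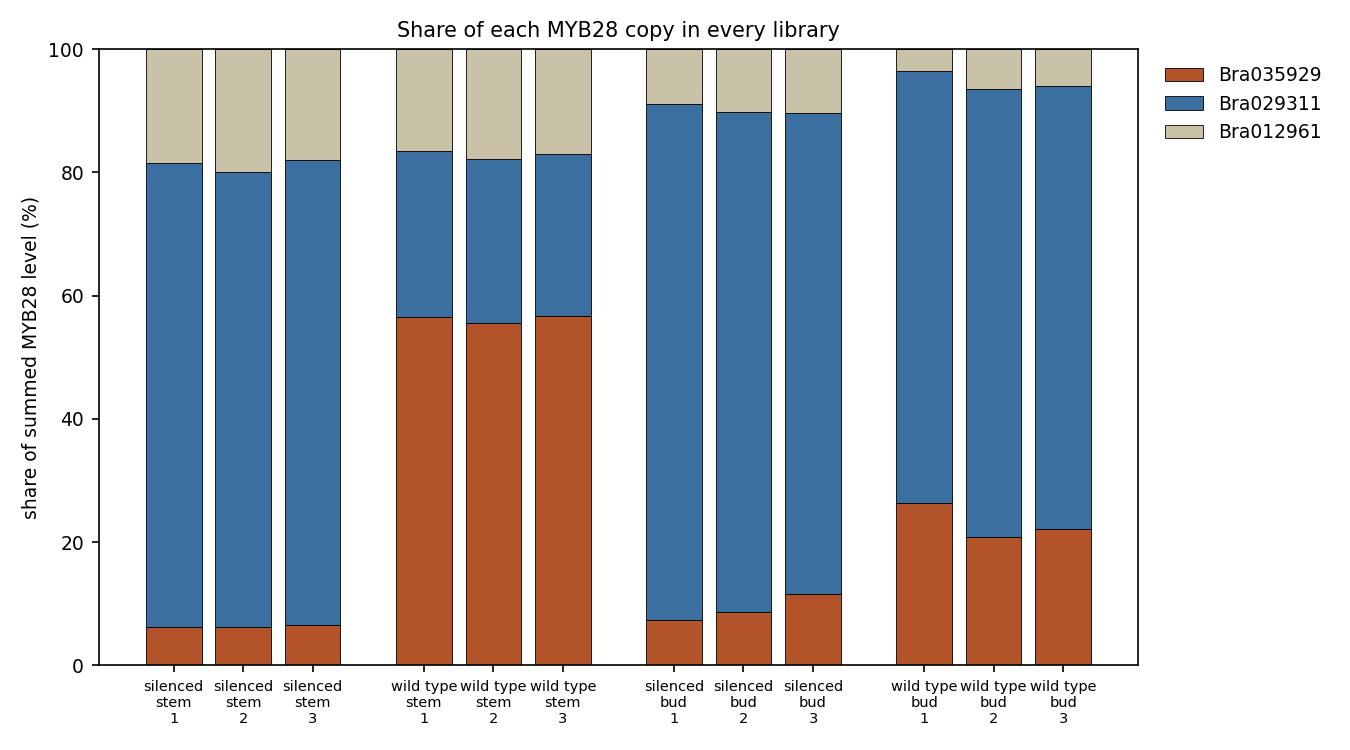
Share of each MYB28 copy in the summed MYB28 level (vertical axis, percent of scaled FPKM) in each of the 12 libraries, grouped as silenced stem, wild type stem, silenced bud and wild type bud. Bra035929 makes up 6.21% to 6.61% in silenced stems and 55.6% to 56.6% in wild type stems.

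The indolic families had lower summed levels and 1 leading copy each, less clearly so for MYB34 in silenced buds. MYB34 summed to 0.702 ± 0.386 scaled FPKM in silenced buds and 7.55 ± 0.678 in wild type buds (SD, n = 3 each), a ratio of 0.0929, and Bra013000 made up 77.3% ± 1.18 of the level in wild type buds. In silenced buds Bra013000 made up 52.2% ± 17.8, on 34 MYB34 reads in all. In silenced bud replicate 1 it had 31.7%, below Bra029349 with 35.8% and Bra029350 with 32.5%. In stems MYB34 summed to 0.994 ± 0.400 scaled FPKM in silenced plants and 0.333 ± 0.222 in wild type plants. MYB51 summed to 9.51 ± 0.682 scaled FPKM in silenced buds and 2.16 ± 0.349 in wild type buds, a ratio of 4.40, and to 0.845 ± 0.224 in silenced stems and 3.34 ± 0.568 in wild type stems, a ratio of 0.253. Bra016553 made up at least 83.2% of the MYB51 level in every library.

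Buds and stems of wild type plants were compared next, to show where each family is normally high. The MYB28 copies were lower in buds: Bra012961 was 39.7-fold lower (log2 fold change -5.31 ± 0.125 SE, edgeR adjusted p = 1.24e-85), Bra035929 31.2-fold lower (-4.96 ± 0.0685 SE, adjusted p = 4.3e-119) and Bra029311 4.71-fold lower (-2.23 ± 0.0607 SE, adjusted p = 4.28e-77). MYB34 was higher in buds. Bra013000 was 20.9-fold higher (log2 fold change 4.39 ± 0.364 SE, edgeR adjusted p = 1.47e-23), and Bra035954, with 53 reads over the wild type bud libraries and 0 over the wild type stem ones, was at least 14.3-fold higher when 3 reads over the group stand for 0 (edgeR adjusted p = 2.51e-09). Because Bra035954 passed the low-count filter only through wild type buds, where it is high, its call adds nothing to the reads themselves.

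Bra016553 was 1.70-fold lower in wild type buds than in wild type stems (log2 fold change -0.77 ± 0.229 SE, edgeR adjusted p = 0.00133). This call did not hold with library totals in place of TMM (log2 fold change -0.40, adjusted p = 0.0927), which shifted the bud to stem log2 fold change of the median gene by 0.37, and the adjusted p ran from 0.000883 to 0.101 over all alternatives. With library totals 63.5% of all calls were higher in buds, against 52.9% with TMM. All 6 tested copies were called between the wild type tissues, against 86.3% of all tested genes. The 6, and the 2 rises, include Bra035954, whose call carries no weight of its own because of the filter. The 4 falls stood against 40.6% of the tested genes called lower and the 2 rises against 45.6% called higher. Leaving out Bra035954, the log2 fold changes of the copies tested ran from -5.31 (Bra012961) to 4.39 (Bra013000). The median of all tested genes was 0.11.

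In silenced plants the tissues differed less in MYB28 and in the reverse direction in Bra016553 and Bra013000. Bra012961 was 7.51-fold lower in silenced buds than in silenced stems, Bra029311 3.67-fold lower and Bra035929 2.71-fold lower (log2 fold changes -2.91 ± 0.154 SE, -1.88 ± 0.0678 SE and -1.44 ± 0.187 SE, with edgeR adjusted p-values of at most 3.33e-12). Bra016553 was 10.2-fold higher in silenced buds (log2 fold change 3.35 ± 0.236 SE, edgeR adjusted p = 2.81e-29). Of the 6 copies tested, 4 were called lower and 1 higher, against 41.5% and 43.6% of all tested genes, with 85.1% called in either direction. The 6 include Bra035954, which passed the filter only through wild type buds, a group not compared here. Leaving it out, the log2 fold changes ran from -2.91 (Bra012961) to 3.35 (Bra016553). The median of all tested genes was 0.05. Library totals in place of TMM shifted the median gene by 0.45 here, and 62.5% of all calls were then higher in buds, against 51.2% with TMM.

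Bra013000 was 2.45-fold lower in silenced buds than in silenced stems (log2 fold change -1.29 ± 0.453 SE, edgeR adjusted p = 0.00611), on 20 reads over the bud libraries and 35 over the stem ones, and the groups overlapped. The call was lost without silenced stem replicate 2 (log2 fold change -0.95, adjusted p = 0.0923), without silenced bud replicate 1 (-0.88, adjusted p = 0.0698) and with library totals (-0.85, adjusted p = 0.0724). Without silenced bud replicate 3 the log2 fold change was -1.94, and the adjusted p ran from 0.00091 to 0.0975 over all alternatives. Bra035954 was not called here, with 1 read in silenced buds and 0 in silenced stems.

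The 4 copies left out by the filter had few reads everywhere. Bra029349 (MYB34) had 11 reads over the silenced bud libraries and 11 over the wild type ones, 0 in silenced stems and 2 in wild type stems. Bra029350 (MYB34) had 2 reads over the silenced buds and 10 over the wild type buds, a ratio of 0.185 with a 95% exact interval from 0.0197 to 0.869 for counting error, and none in stems. Its libraries overlapped between genotypes, and without the filter the edgeR adjusted p was 0.094. Bra025666 (MYB51) had 7 reads over the silenced buds, 3 over the wild type buds and none in stems. Bra031035 (MYB51) had 35 reads over the silenced buds and 0 over the silenced stems. It was 8.23-fold higher in silenced buds when 3 reads over the group stand for 0. The lower 95% exact limit for counting error was 6.35-fold. Zero reads over the 3 silenced stem libraries allow at most 0.0795 scaled FPKM for Bra025666 and 0.0968 for Bra029349 (3 reads over the group, counting error only).

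For the copy of highest mean level in each family, the tested gene with the most similar profile was sought over the 12 libraries. Likeness was the root-mean-square difference of log2 CPM (library-size-scaled counts, prior count 2) after each gene was centred on its own mean. For the MYB28 copy Bra035929, which led MYB28 only in wild type stems, the nearest gene was Bra037322, at 0.288 on the log2 scale. Bra037322 had 0.870 ± 0.124 CPM in silenced stems, 36.9 ± 1.28 in wild type stems, 0.208 ± 0.163 in silenced buds and 1.06 ± 0.303 in wild type buds (SD, n = 3 each). For the MYB34 copy Bra013000 it was Bra026498, at 0.415, with 10.2 ± 0.233 CPM in wild type buds and at most 1.90 ± 0.396 CPM on average in the other groups. For the MYB51 copy Bra016553 it was Bra008255, at 0.196, with 3.93 ± 0.888 CPM in silenced stems, 12.4 ± 0.960 in wild type stems, 29.5 ± 0.671 in silenced buds and 7.50 ± 1.36 in wild type buds. The files do not name these 3 genes.

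For these 3 copies, the nearest gene was not another of the 10 copies. Bra012961 was the closest other copy to Bra035929, at 1.47 on the log2 scale and in position 548 among 28113 genes. Bra035954 was the closest to Bra013000, at 0.778 and in position 357. No other MYB51 copy was tested. The copy closest to Bra016553 was the MYB28 copy Bra029311, at 1.91 and in position 21591, farther than the median gene at 1.41. Within 0.5 on the log2 scale lay 159 genes for Bra016553, against 6 each for Bra035929 and Bra013000.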

How the data were processed

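Per the labels' protocols, Trizol-extracted RNA from stems and buds went into Illumina libraries; strandedness was not stated. The authors deposited raw read counts per gene for 41020 genes, and an FPKM table for 36230 of them. Per the submitters' processing notes the tools included featureCounts 2.0.1, HISAT2 2.1.0, TopHat2 and Bowtie 1.0.1, with no roles. For the genome build, the sources used here give nothing. Coding lengths were recovered from the deposited FPKM and counts, and came out whole (relative tolerance 1e-06) and as multiples of 3 for all 10 copies.

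Libraries were grouped by tissue and genotype in their titles. Counts were fitted in edgeR 4.0.16 (R 4.3.3) with filterByExpr (minimum count 10; 28114 genes kept, 12906 left out), TMM scaling, 1 term per group over all 12 libraries and the quasi-likelihood test. A gene was called where its two-sided p, adjusted by Benjamini-Hochberg over all tested genes, was under 0.05. Scaled FPKM and CPM use the TMM library sizes. The common biological coefficient of variation was 2.89%. Intervals of the fold changes are 95%, from the test's standard error.

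The copies, lists and tests were chosen with earlier results of these data known. All 10 copies are named, with the 1 nearest gene for the copy of highest mean level in each family. The planned lists of other glucosinolate genes and of tissue markers could not be matched to identifiers and were not used here. The scripts were tested on simulated counts. Alternatives were other scalings, no filter, DESeq2 1.42.0, a replicate block, fits restricted to the groups compared (not made for the interaction), omission of each library in turn, and limma 3.58.1 on FPKM logged with a pseudocount of 1 or 0.1, where genes needed 1 FPKM or more in 3 libraries.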

Additional observations from a re-analysis of the deposited data

Results flagged for a closer look

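Silenced and wild type plants differed by other amounts in bud than in stem, by edgeR's interaction test over 12 libraries. This held for the 5 copies that passed the low-count filter and had stem reads. Whether the libraries were separate plants or lines is not stated, so silencing cannot be told apart from differences between plants or lines. On the log2 scale, bud minus stem, the difference was 4.12 for Bra016553 (MYB51) and -5.68 for Bra013000 (MYB34), each with opposite signs in the tissues. It was 3.52 for Bra035929, 2.40 for Bra012961 and 0.36 for Bra029311 (all MYB28). Of all tested genes, 74.4% had such a difference.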

How the results depend on the processing

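All counts of called genes and of called copies stayed within 1.5 times their main values in the 21 alternative fits, of which 12 left out 1 library each. Genes called ranged from 18632 to 20254 for silencing in stem and from 21166 to 23913 for silencing in bud. Among the alternative fold changes of single copies, 428 kept direction and side of the threshold and 8 kept direction but lost the call. These 8 concerned Bra016553 between wild type tissues (3 alternatives) and Bra013000 between silenced tissues (5 alternatives). Besides the values given above, limma on log2(FPKM + 1) and log2(FPKM + 0.1) gave -0.28 (adjusted p = 0.0588) and -0.37 (adjusted p = 0.101) for Bra016553, and -0.35 (adjusted p = 0.0709) and -0.89 (adjusted p = 0.0975) for Bra013000. The deposited FPKM follow library totals without TMM scaling, so limma shares that change of scaling with the fit on library totals. The cause of the lost calls was not tested. The pseudocount of 1 shrinks the fold changes of low copies by construction: for Bra013000 in stem it gave 0.58 in place of 1.86. Limma left out Bra035954, which did not reach 1 FPKM in 3 libraries.

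With the replicate number as a block, 19458 genes were called in stem, 22274 in bud and 20797 for the interaction, against 19598, 22439 and 20904 without it, and no call on a copy changed. The numbers did not pair the libraries: deviations of same-numbered libraries from their group means correlated at -0.0071 to 0.0116, and 4 of 12 libraries correlated best with a library of their own number. For the 5 copies with at most 3 stem reads in either genotype, no stem change is reported.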
